A study of Saccharomyces cerevisiae with 4 samples.

Results

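Molecular chaperones are proteins that help other proteins reach and keep their folded state. The set described here held 44 genes of budding yeast, Saccharomyces cerevisiae, chosen by name, of 6207 yeast rows in the deposited array table. By the site where their products work, 29 belonged to the cytosol, 5 to mitochondria and 10 to the endoplasmic reticulum (ER), and all 44 were found in the table by symbol. A value on all 4 arrays was present for 38 of them (25 cytosolic, 5 mitochondrial and 8 of the ER), and only these were tested. The other 6, SSE2, HSP104, HSP42, BTN2, JEM1 and EUG1, are given as values.

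All cells carried a hog1 mutation, in the gene of the MAP kinase of the high-osmolarity pathway, so that treated and untreated cells shared it, and no wild-type cells were analysed here. The growth medium was YEPD, a rich medium, kept at 24 °C, and each culture was split. Zymolyase 100T, an enzyme preparation that digests the beta-glucan of the yeast cell wall, was added to one portion at 5 units/ml, while the other portion was left untreated, and RNA was taken at 3 h. RNA of 2 cultures was compared on 2-colour arrays, and for each culture the hybridisation was done again with the dyes exchanged. Arrays 1 and 3 had the treated RNA in Cy3 and arrays 2 and 4 had it in Cy5, and it is not known which of them belong to the same culture.

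Each value below is a log2 ratio of treated over untreated cells on 1 array, with arrays 2 and 4 turned in sign, and a mean is over the 4 arrays with the SD between them. The files do not state the numerator. In this reading the mating genes PRM1 and FIG1 and the pectinase gene PGU1, barely expressed without a mating or filamentation signal, had means of 6.51, 5.40 and 5.38, so the direction is likely, and the opposite numerator would turn every sign. A ratio carries no level of expression, and levels of different genes are not compared. Arrays 1 to 4 gave 2794, 4162, 5322 and 5127 values. Over the 2715 rows with a value on every array, arrays of the same dye orientation correlated across genes with Spearman rho of 0.364 and 0.434, against −0.002 to 0.185 for arrays of opposite orientation. Genes are not independent replicates, and in such data a small ratio in 1 orientation can reflect the dye.

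Chaperones act as machines with partners. Hsp70 proteins bind unfolded stretches of other proteins, J-proteins bring them clients and start ATP hydrolysis, and nucleotide exchange factors let the client go. Hsp90 works on clients in a late stage of folding, and the chaperonins enclose a protein in a chamber. In yeast, the factor Hsf1 drives many cytosolic and some mitochondrial chaperone genes, and Hac1, made after splicing by Ire1, drives chaperone genes of the ER when unfolded protein collects there.

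The chaperone genes of the 3 compartments showed small ratios, with a single exception. SNL1, a membrane-anchored exchange factor for Hsp70, fell 2.75-fold in treated cells and was the only member called. Of the 38 tested members, 1 had an adjusted p under 0.05 by limma (0 higher, 1 lower), which is 2.63% of them, against 2.21% of all 2715 tested rows in either direction with 2.03% higher and 0.184% lower. The other 37 means lay between −0.34 for FES1 and 0.44 for PDI1. For each of these 37 genes limma's 95% interval, over the wider of both ways to pair the arrays, stayed within 2-fold either way, as it did for 93.5% of all tested rows. With arrays 1+4 and 3+2 paired, limma gave all rows a common variance, so that interval takes no account of a gene's own spread. KAR2, with an SD of 0.84 between arrays, had 0.065 to 0.72, and SSB2, with an SD of 0.019, had −0.24 to 0.42. The bound is therefore no measure of the precision of each gene. At an unadjusted p under 0.05 there were 5 members (SNL1, PDI1, KAR2, SSA1 and AHA1), against 14.7% of all tested rows.

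**Figure D1:**
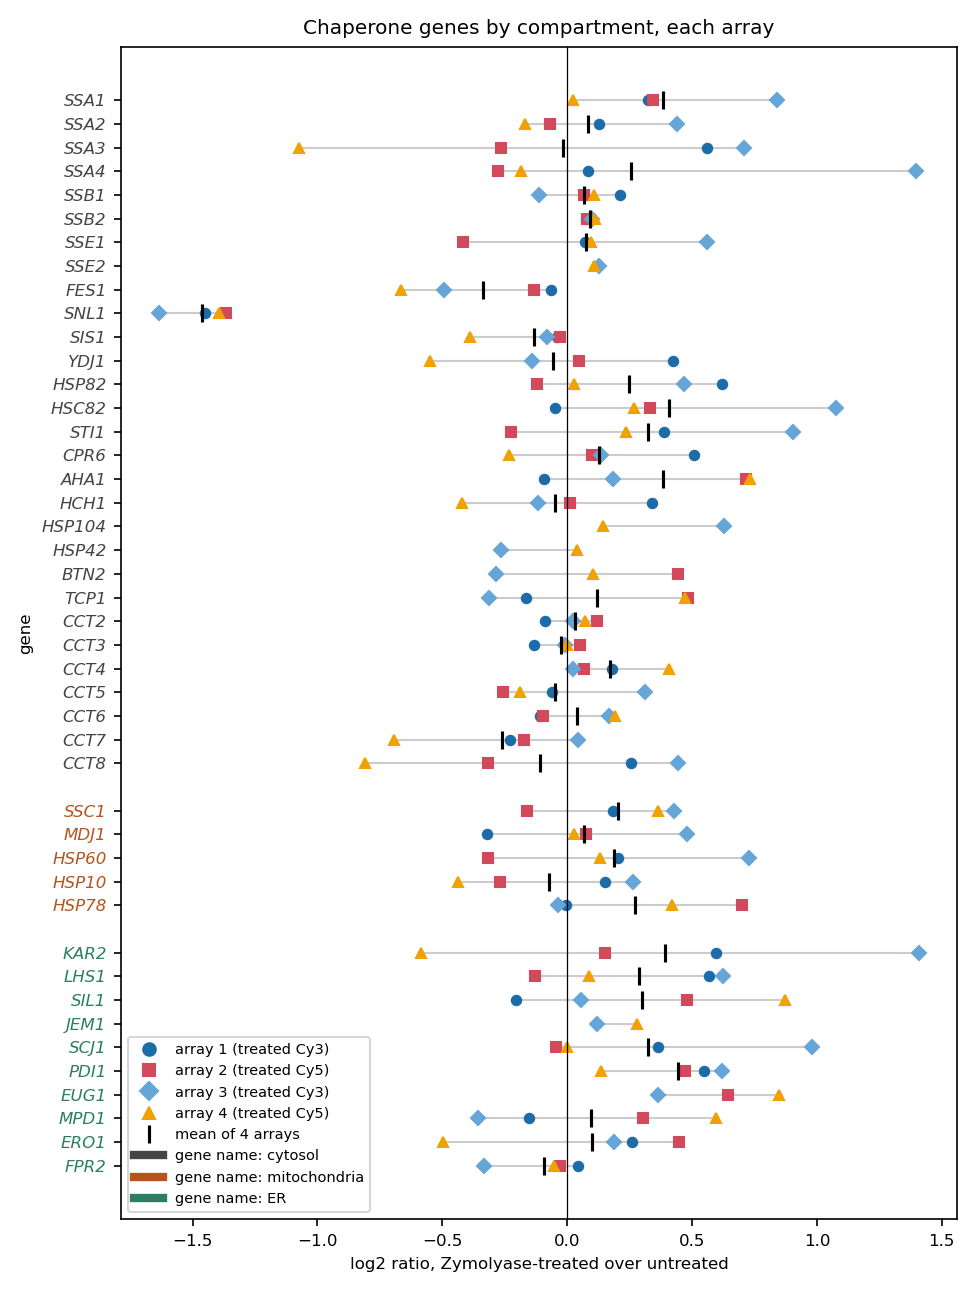
The log2 ratio (treated over untreated, horizontal axis) of each of the 44 genes on each array, with the symbol's shape and colour for the array, a bar for the mean of genes with 4 values, and the colour of the gene name for the compartment. SNL1 lies between −1.63 and −1.37, apart from all other members, and for most of the others the 4 arrays fall on both sides of 0.

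More means lay above 0 than below it. Of the 38 tested members 26 had a mean above 0, or 68.4%, against 40.6% of all tested rows, and their median was 0.094 against −0.053. By compartment, 15 of 25 cytosolic, 4 of 5 mitochondrial and 7 of 8 ER genes had a mean above 0. These shares are descriptions of a list chosen by name, and no test was made over the list. A value of the same sign on all 4 arrays was found for 7 members, or 18.4%, against 25.1% of all tested rows. Of these, 4 (SSA1, SSB2, CCT4 and PDI1) lay above 0, against 9.83% of all tested rows, and 3 (FES1, SNL1 and SIS1) below, against 15.2%.

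The compartment medians were ordered ER, mitochondria, cytosol, and each of the 3 medians was highest on array 3. The median of the means was 0.29 for the ER, 0.19 for mitochondria and 0.069 for the cytosol. On arrays 1 to 4 the ER median was 0.31, 0.23, 0.40 and 0.043, the mitochondrial median 0.15, −0.16, 0.43 and 0.13, and the cytosolic median 0.074, −0.028, 0.14 and −0.0027. The ER median thus stood above the cytosolic one on all 4 arrays, by 0.24, 0.26, 0.27 and 0.046 (0.20 ± 0.10, SD, n = 4 arrays). Mitochondria stood above the cytosol on 3 of 4 arrays (0.093 ± 0.17), and the ER above mitochondria on 2 of 4 (0.11 ± 0.21), so these orders lay within the spread between arrays. Without array 3 the medians were 0.14, 0.0067 and −0.024, beside −0.07 for all tested rows. With the treated RNA in Cy5 alone they were −0.022, 0.052 and −0.067. The compartments were not uniform. In the ER the median of the means was 0.31 for 4 genes of the Hsp70 system and 0.099 for 4 disulfide and isomerase genes. In the cytosol it was 0.29 for 6 Hsp90 genes, 0.087 for 6 Hsp70 genes and 0.0042 for 8 chaperonin genes. For the cytosolic exchange factors and J-proteins it lay below 0.

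**Figure D2:**
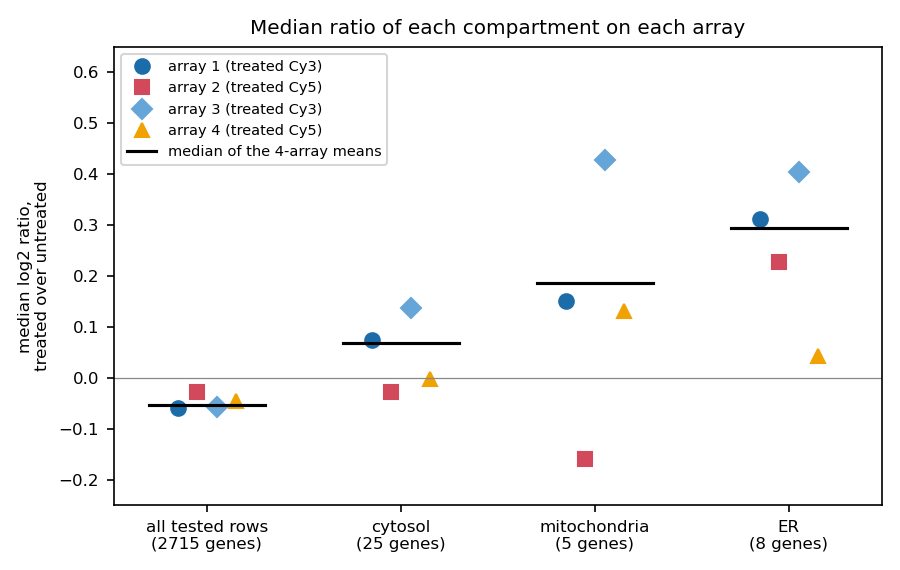
The median log2 ratio (vertical axis) of all tested rows and of the tested genes of each compartment on each array, with a line at the median of the 4-array means. All tested rows sit between −0.06 and −0.03 on every array, while the compartment medians spread widely and are highest on array 3 for all 3 compartments.

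SNL1 encodes a small protein held in the nuclear and ER membrane, with a BAG domain on the cytosolic side that acts as an exchange factor for Hsp70. Its log2 ratios were −1.45, −1.37, −1.63 and −1.40 on arrays 1 to 4, all far below 0, and the means of the dye orientations differed by 0.16 (−1.54 with the treated RNA in Cy3 and −1.38 in Cy5). The mean was −1.46 ± 0.12 (SD, n = 4 arrays; adjusted p = 0.0085 by limma; 95% interval −1.79 to −1.13), the second lowest mean of all 2715 tested rows. Leaving out array 2 gave a mean of −1.49 and ended the call (adjusted p = 0.0668).

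In the gene order of assembly R64, SNL1 lies next to BAR1, which encodes the protease that degrades alpha-factor outside the cell. The systematic names of both end in W, for the same strand, and BAR1 follows SNL1 in the direction of reading. BAR1 had log2 ratios of 2.14, 1.69, 1.76 and 2.13, a mean of 1.93 ± 0.24 and a 3.82-fold rise (adjusted p = 0.0035 by limma). Without array 2 its adjusted p was 0.0422. The gene on the other side, VID28, has no row in the table, and RPL2B beyond it had values between −0.062 and 0.037. The neighbours SNL1 and BAR1 thus lay on opposite sides of 0 on all 4 arrays. Of 32 tested direct neighbours of the 44 members, 2 were called, BAR1 and YNL208W beside SSB2 (1.67 ± 0.50, adjusted p = 0.0104), against 2.21% of all tested rows. YNL208W was not called with the arrays brought to one scale (adjusted p = 0.0608 by limma). SSB2 itself stayed near 0, as given below. The neighbours were looked up after the value of SNL1 was known, and whether the place beside BAR1 bears on SNL1 was not tested.

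**Figure D3:**
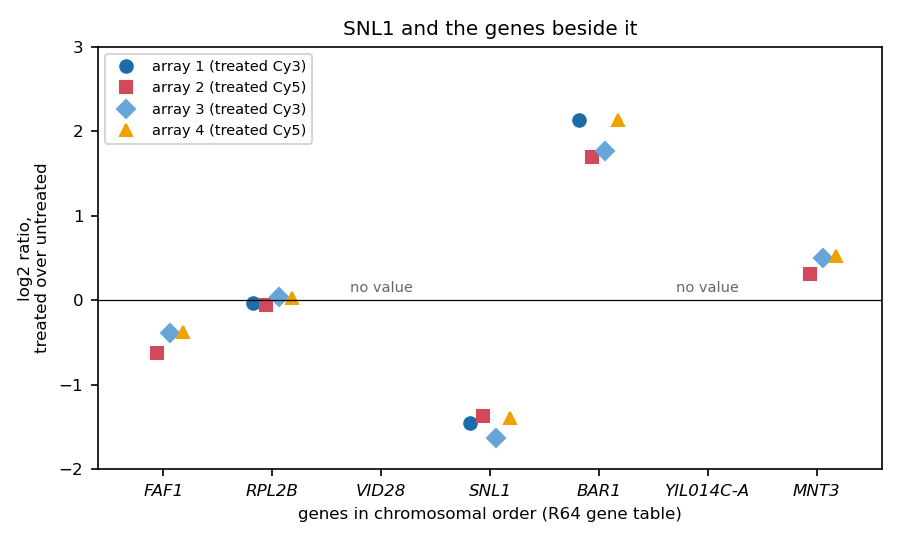
The log2 ratio (vertical axis) on each array for SNL1 and the protein-coding genes beside it, in chromosomal order and not to distance. BAR1, the next gene after SNL1, lies between 1.69 and 2.14, and SNL1 between −1.63 and −1.37.

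The cytosolic Hsp70 proteins fall into the Ssa family, which works on proteins throughout the cytosol, and the Ssb pair, which sits on ribosomes and receives new chains. SSA1 had values of 0.33, 0.34, 0.84 and 0.024 and a mean of 0.38 ± 0.34 (adjusted p = 0.296 by limma), and SSA2, the other gene expressed in unstressed cells, had 0.13, −0.070, 0.44 and −0.17 (0.082 ± 0.27, adjusted p = 0.826). SSA1 lay above SSA2 on all 4 arrays, by 0.20, 0.41, 0.40 and 0.19 (0.30 ± 0.12, SD, n = 4 arrays). Their coding sequences are nearly identical, so labelled cDNA of one can bind the spot of the other, and the 2 ratios are not independent. The values of the stress-induced pair split by dye. SSA3 had 0.56 and 0.71 with the treated RNA in Cy3 and −0.27 and −1.07 with it in Cy5, which left a mean of −0.018 ± 0.82. SSA4 had 1.40 on array 3 and −0.28 to 0.084 on the others (0.25 ± 0.78), and without array 3 its mean was −0.13.

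The Ssb genes gave the tightest values of the Hsp70 group. SSB1 had 0.21, 0.068, −0.11 and 0.11, with a mean of 0.069 ± 0.13. SSB2 had 0.074, 0.078, 0.10 and 0.11, with a mean of 0.092 ± 0.019 and a 95% interval of −0.24 to 0.42. These 2 genes encode nearly the same protein, and their difference was −0.022 ± 0.14. Neither passed (adjusted p = 0.866 for SSB1 and 0.802 for SSB2 by limma).

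The partners of Hsp70 in the cytosol had means below 0, apart from the Hsp110 genes. SSE1, an Hsp110 exchange factor, had a mean of 0.077 ± 0.40, and SSE2, its stress-induced relative, 0.13 and 0.11 on arrays 3 and 4. FES1, a further exchange factor, had −0.066, −0.13, −0.49 and −0.67, all below 0, with a mean of −0.34 ± 0.29 (adjusted p = 0.411 by limma). FES1 was the lowest member after SNL1, and the 2 did not overlap on any array. The J-protein SIS1 had a mean of −0.13 ± 0.17 and YDJ1, the main J-protein of the cytosol, −0.055 ± 0.40, with values of 0.42 on array 1 and −0.55 on array 4.

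Of the Hsp90 machine, 5 of 6 genes had a mean above 0, the median was 0.29 and 0 were called. HSC82, the gene expressed in unstressed cells, had −0.048, 0.33, 1.08 and 0.27, and HSP82, its stress-induced copy, 0.62, −0.12, 0.47 and 0.026. Both therefore crossed 0, with means of 0.41 ± 0.48 (adjusted p = 0.36 by limma) and 0.25 ± 0.35 (adjusted p = 0.422), and their proteins are nearly identical, so that the spots can share cDNA. STI1, which links Hsp70 to Hsp90, had 0.39, −0.23, 0.90 and 0.24 (0.32 ± 0.47). AHA1, which stimulates the ATPase of Hsp90, was high with the treated RNA in Cy5, at 0.72 and 0.73, and near 0 in Cy3, at −0.092 and 0.18 (0.38 ± 0.41, adjusted p = 0.301). HCH1, a relative of AHA1, had a mean of −0.048 ± 0.32, and the cyclophilin CPR6, a partner of Hsp90, 0.13 ± 0.30.

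The genes for rescue and storage of aggregated protein had few values. HSP104, the disaggregase, had 0.63 and 0.14 on arrays 3 and 4, and HSP42, a small heat shock protein that gathers misfolded protein, −0.26 and 0.038 on the same arrays. BTN2, a sequestering factor, had 0.44, −0.29 and 0.10 on arrays 2, 3 and 4. None of these values reached 2-fold, and arrays 3 and 4 disagreed in sign for HSP42 and BTN2. When rows with a value in each dye orientation were tested (5107 rows, of which 66 were called), HSP104 had an adjusted p of 0.649, HSP42 0.93 and BTN2 0.914 by limma.

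TRiC, also called CCT, is the chaperonin of the cytosol, a ring of 8 different subunits that folds actin and tubulin. All 8 subunit genes were tested, 4 had a mean above 0 and 4 below, and 0 were called. Their means ran from −0.26 ± 0.31 for CCT7 to 0.17 ± 0.17 for CCT4, with a median of 0.0042, and the median of the group stayed between −0.099 and 0.034 on each array. CCT2, CCT3 and CCT6 lay between −0.13 and 0.19 on all arrays. TCP1 had −0.17 and −0.31 with treated RNA in Cy3 and 0.49 and 0.47 in Cy5, while CCT8 had 0.25 and 0.44 in Cy3 and −0.32 and −0.81 in Cy5. The products of these 2 genes sit in the same ring, and their ratios split by dye in opposite ways.

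In mitochondria, SSC1 is the Hsp70 that pulls in and folds imported proteins, MDJ1 its J-protein, HSP60 and HSP10 the chaperonin and its lid, and HSP78 a disaggregase of the Clp type. SSC1 had 0.18, −0.16, 0.43 and 0.36 (0.20 ± 0.26, adjusted p = 0.571 by limma), and HSP60 0.20, −0.32, 0.73 and 0.13 (0.19 ± 0.43, adjusted p = 0.634). Both had their lowest value on array 2 and their highest on array 3. HSP10 had a mean of −0.073 ± 0.33, so the means of the 2 chaperonin genes lay on opposite sides of 0, and HSP60 exceeded HSP10 by 0.26 ± 0.30. HSP78 had −0.0046, 0.70, −0.035 and 0.42 (0.27 ± 0.35, adjusted p = 0.411), and was above 0 only with the treated RNA in Cy5. MDJ1 had a mean of 0.066 ± 0.33, and 0 of the 5 were called.

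The Hsp70 system of the ER centres on KAR2, the yeast BiP, with the exchange factors LHS1 and SIL1 and the J-proteins SCJ1 and JEM1. KAR2 had 0.60, 0.15, 1.41 and −0.59, the widest span of any member (2.00), and a mean of 0.39 ± 0.84 (adjusted p = 0.292 by limma). Its mean was 0.054 without array 3. With the treated RNA in Cy3 alone KAR2 had a mean of 1.00 and was called (adjusted p = 0.0188 by limma), among 141 of the 2715 tested rows. In that setting treatment and dye cannot be told apart. With the treated RNA in Cy5 alone the mean of KAR2 was −0.22. LHS1 (0.29 ± 0.37) and SCJ1 (0.32 ± 0.47) were likewise higher in Cy3, whereas SIL1, at −0.21, 0.48, 0.056 and 0.87 (0.30 ± 0.47), was higher in Cy5. LHS1 and SIL1 thus had like means from opposite arrays. JEM1 had 0.12 and 0.28 on arrays 3 and 4.

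The other ER genes act in disulfide formation and proline isomerisation. PDI1, the main protein disulfide isomerase, had 0.55, 0.47, 0.62 and 0.13, above 0 on all arrays. Its mean of 0.44 ± 0.21 was the highest of the tested members and did not pass (adjusted p = 0.261 by limma; 95% interval 0.11 to 0.78). It was called if arrays 1 and 4, and 3 and 2, shared a culture (adjusted p = 0.0459 by limma). That pairing called 277 of all 2715 tested rows, against 60 when the larger p of both pairings was kept. The mean of PDI1 without array 3 was 0.39. EUG1, a relative of PDI1, had 0.64, 0.36 and 0.85 on arrays 2, 3 and 4, and an adjusted p of 0.193 among rows with each dye orientation. ERO1, the oxidase that passes oxidising power to PDI1, had 0.26, 0.45, 0.19 and −0.50 (0.10 ± 0.41), so it did not follow PDI1 on array 4. MPD1, a further relative of PDI1, had 0.097 ± 0.43, with both Cy5 arrays above 0 and both Cy3 arrays below. FPR2, a prolyl isomerase, was near 0 (−0.093 ± 0.16), and it lies next to EUG1 in the gene order of R64.

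Dye orientation and array 3 moved with the values of many members. The sign followed the dye, with both Cy3 arrays on one side of 0 and both Cy5 arrays on the other, for 9 of 38 tested members (23.7%), against 15.9% of all tested rows. Of the 9, 6 (SSA2, SSA3, SSA4, CCT8, HSP10 and SCJ1) were above 0 with the treated RNA in Cy3, against 7.62% of all tested rows, and 3 (TCP1, HSP78 and MPD1) with it in Cy5, against 8.25%. Array 3 held the highest value for 18 of 38 (47.4%), against 28.9% of all tested rows, and stood at least 0.5 above the next array for SSA4, HSC82, STI1, HSP60, KAR2 and SCJ1 (6 of 38, against 8.51%). On that array HAC1, the gene of the ER stress factor and not itself a member, had 4.52, against −0.091, −1.18 and −0.77 on arrays 1, 2 and 4. HAC1 was not alone in this. YAR010C had 4.19 on array 3 and −1.52 to 0.31 on the others, and YBL005W-A had 4.07 and −1.21 to 0.40. Over all tested rows the SD between genes was 0.53, 0.54, 0.66 and 0.58 on arrays 1 to 4. The part of the dye, of array 3 or of HAC1 in the values of the members was not tested.

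**Figure D4:**
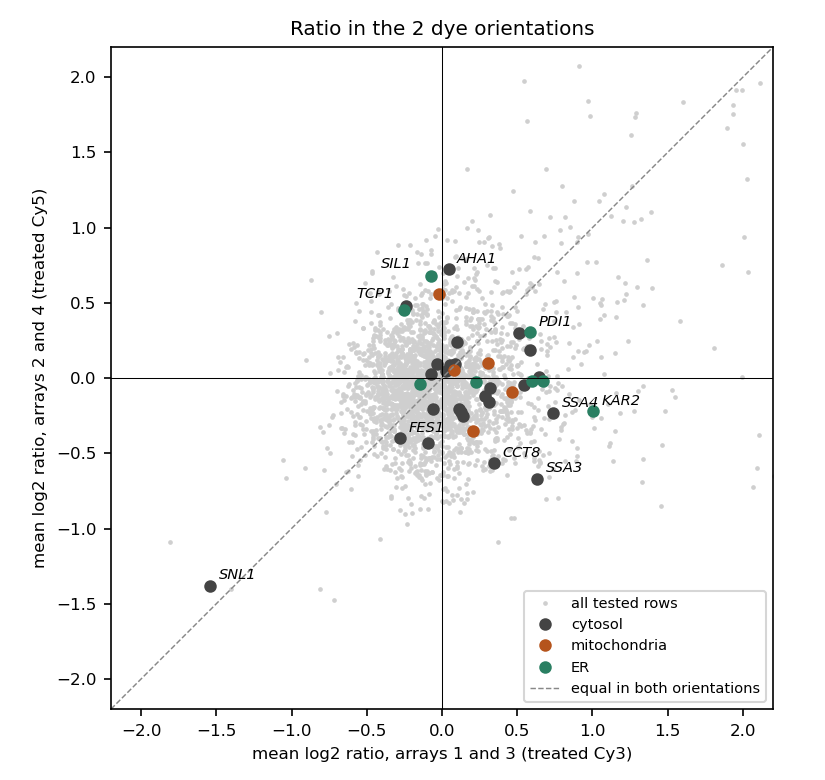
The mean log2 ratio of arrays 1 and 3 (treated RNA in Cy3, horizontal axis) against that of arrays 2 and 4 (treated RNA in Cy5, vertical axis) for all tested rows (grey; 32 rows lie outside the axes) and for the tested members, coloured by compartment. SNL1 sits near the dashed line of equal ratios, while KAR2, SSA3, SSA4 and CCT8 lie below it and AHA1, SIL1 and TCP1 above it.

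A further list of folding genes outside the set held 63 genes, such as prefoldin subunits, other partners of Hsp70 and Hsp90, import motor subunits and ER quality control genes. Of these 40 were tested and 0 were called by limma, against 2.21% of all tested rows. An unadjusted p under 0.05 was found for 3, against 14.7% of all tested rows. The median of the 40 tested genes was −0.027, and 17 had a mean above 0 (42.5%, against 40.6% of all tested rows). By compartment the medians were −0.03 for 22 cytosolic genes, −0.12 for 7 mitochondrial genes and 0.16 for 11 ER genes, of which 7 were above 0. On arrays 1 to 4 the median of these ER genes was 0.0032, −0.12, 0.32 and 0.050, so it was highest on array 3. Without array 3 it was 0.023, beside −0.080 for the cytosolic and −0.13 for the mitochondrial genes. HSP31, a stress-induced protein with chaperone activity, had 0.44, 0.66, 0.55 and 0.60 (0.56 ± 0.091, adjusted p = 0.151), and MGE1, the exchange factor of SSC1, −0.33, −0.21, −0.13 and −1.39 (−0.51 ± 0.59, adjusted p = 0.292). HSF1 had 0.29 and 0.046 on arrays 3 and 4. HSP31, MGE1 and HSF1 were named after their values were seen.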

How the data were processed

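Per the labels' protocols, cDNA made from total RNA was labelled with Cy3 or Cy5 and hybridised to 2-colour arrays. The authors deposited a normalized log2 ratio per row and array. How background and normalization were handled, what left values blank and which condition is the numerator is not stated there. The base was read off the numbers themselves: with arrays 2 and 4 turned in sign, 100% of the 9281 values below 0 were log2 values of a linear ratio with 4 decimals, against 76.3% and 88.1% for natural log and log10. Symbols came from the R64 gene table of RefSeq for 5654 rows, 553 kept their identifier, and 2 control rows were left out. Deposited medians of the arrays were −0.0611, 0.0159, −0.0831 and −0.0255, and no centring was applied.

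The 2 cultures were the replicates. For both ways to form dye-swap pairs (arrays 1+2 and 3+4, or 1+4 and 3+2), pair means of the 2715 rows with 4 values were compared with 0 in limma 3.58.1 under R 4.3.3 (lmFit, eBayes), and the larger p was kept and adjusted over all 2715 rows by Benjamini-Hochberg. Rows with an adjusted p under 0.05 were called. If the 4 arrays were independent, an exact test by sign turns would reach p = 0.125 at the lowest. The 2 cultures are fewer units than the arrays, so for them the lowest p of such a test is higher. The labels do not say that the cultures were independent, and p-values measure spread within these samples only. The weight limma gave to the spread pooled over rows (prior degrees of freedom) was 4.125 for arrays 1+2 and 3+4. For arrays 1+4 and 3+2 it was infinite, so all rows shared a single pooled variance. In that fit p does not measure a gene's own spread. Members, lists and tests were chosen with earlier results of these data known. Every member may be named, with values per array for central, highest, lowest and called members, and other genes were named after their values were seen. Alternatives changed the pairing, dye term, centring, scale, variance model, blank filter, orientation and arrays. The planned promoter motif search was not run. Nearly identical genes can share labelled cDNA, and the number of arrays limits precision.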

Additional observations from a re-analysis of the deposited data

Results flagged for a closer look

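SIS1, a J-protein of the cytosol, had −0.39 on array 4, against −0.079 to −0.028 on the other arrays. The gap from the array farthest out to its nearest neighbour was 0.858 of the whole range of the 4 values, above Dixon's critical value at the 95% level. Of 41 genes checked (the 38 tested members with HAC1, HSP31 and BAR1), 1 passed this value, where chance gives about 2.05. The measure is relative to a gene's own range, so genes with larger gaps on array 3, such as HAC1 and SSA4, did not pass it. No difference between groups could be examined, because all arrays belong to 1 comparison.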

How the results depend on the processing

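SNL1 stayed called under 13 of 14 alternatives, with means between −1.54 and −1.38, and from −1.49 to −1.40 without 1 replicate. Over all 14, its adjusted p ran from 1.34e-18 to 0.0668 by limma. The lowest came from arrays 1+4 and 3+2 as the pairs, where all rows shared a single variance. Arrays 1+2 and 3+4 as the only pairs gave 0.0085, as when the larger p of both pairings was kept. The alternatives are thus not separate checks. Without array 2 SNL1 had −1.49 (adjusted p = 0.0668) and 0 members were called. The called members numbered 2 for arrays 1+4 and 3+2 as the pairs, with PDI1 beside SNL1, and 2 for the Cy3-treated arrays alone, with KAR2 beside SNL1. Without 1 replicate array they ranged from 0 to 1. Of 518 values of the other 37 members, 516 were not called, and the sign turned in 41, over 24 members. Alternatives of pairing, dye term and variance model leave the means as they are, so no sign could turn in them. Called rows, 60 of 2715, numbered 277 when arrays 1+4 and 3+2 were paired, 119 for 4 separate arrays with a dye term, 97 without it and 141 for the Cy3-treated arrays alone, and ranged from 22 (without array 2) to 129 (without array 3) with 1 replicate left out. The cytosolic median moved to −0.067 for the Cy5-treated arrays alone, and without 1 replicate it ranged from −0.024 to 0.085. The ER median moved to −0.022 for the Cy5-treated arrays alone and ranged from 0.14 to 0.33 without 1 replicate. The mitochondrial median ranged from 0.0067 to 0.20 without 1 replicate. The ER median was above the cytosolic one under all 14 alternatives, several of which leave the means as they are, and below the mitochondrial one for the Cy5-treated arrays alone.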
